A study of Bos taurus with 48 samples.

Results

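NQO1, PIR and EPHX2 are 3 genes of cellular detoxification and redox balance, and they were followed here in subcutaneous adipose tissue of Norwegian Red heifers. They were chosen by name, as NQO1 (ENSBTAG00000020632), PIR (ENSBTAG00000009477) and EPHX2 (ENSBTAG00000015241), with earlier results of these data known. The study had already listed all 3 as differing between diets. Symbols came from the study's own tables and were known for 1006 of the 24616 genes counted. All 3 passed the filter on low counts in every fit. The study compared rearing diets that differed in energy and protein content. Polyadenylated RNA was sequenced from 24 heifers, with 6 on each of 4 diets. These combined a low protein level with high energy (LPHE) or low energy (LPLE), or a high protein level with high energy (HPHE) or low energy (HPLE). Each diet had 3 heifers of a genetic group bred for high milk yield (HMY) and 3 of a group bred for low clinical mastitis (LCM).

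Each heifer was biopsied at 12 months of age, while on her rearing diet, and a second time in month 7 of gestation, so that there were 48 samples. Diets of high energy are called HE and those of low energy LE. The rearing diets were fed from 3 months of age until breeding had succeeded, and all heifers, whatever their earlier diet, then had free access to 1 and the same low-energy feed. The diet names in gestation therefore denote the earlier diet. Age, pregnancy and the change of feed all separate the samplings and cannot be told apart. Breeding was timed by body weight, which HE heifers reached earlier, so the heifers reared on low energy were older in month 7 of gestation and had a longer interval between their biopsies. Differences between energy levels in gestation, and in the change with time, therefore cannot be told apart from age. There was no group left on a rearing diet in gestation and none that was sampled without being bred. The biopsies were described for 12 months as taken beside the tail base, and RNA samples of the best quality were picked for sequencing.

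NQO1 encodes NAD(P)H quinone dehydrogenase 1, a cytosolic flavoprotein that reduces quinones by a pair of electrons at once and so avoids reactive semiquinones. PIR encodes pirin, an iron-binding nuclear protein of the cupin family that interacts with BCL3 and nuclear factor I proteins and is studied as a redox-sensitive co-regulator of NF-kappaB. EPHX2 encodes soluble epoxide hydrolase, which turns epoxides of fatty acids into diols and is found in the cytosol and in peroxisomes. NQO1 is a textbook target of the transcription factor NRF2, which is held back by KEAP1 in unstressed cells and acts through antioxidant response elements. NADPH, which NQO1 can use, is also the reducing agent for fatty acid synthesis in adipocytes.

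In the RefSeq gene table of assembly ARS-UCD2.0, which is another build than the UMD3.1 assembly of the counts, NQO1 lies between the coding genes NFAT5 and NOB1 and overlaps no other gene. PIR lies between BMX and VEGFD and overlaps 1 pseudogene, LOC781781. EPHX2 lies between CHRNA2 and GULO and overlaps 1 tRNA gene and 1 coding gene, LOC781381. Whether reads of PIR and EPHX2 were lost to or gained from these overlaps was not tested, and the library kit is of a type that does not keep the strand.

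Between 14815595 and 61027456 reads per sample were counted on genes, with medians of 32166717 at 12 months and 43293433 in gestation. NQO1 had 544 to 6371 reads in a sample, PIR 289 to 2824 and EPHX2 1097 to 5667, so the spread between heifers and not counting error limited the precision. Expression is given as TMM-normalised CPM, the reads of a gene scaled to a common library size, which correct for depth but not for gene length, and levels are compared within a gene only. Of the 6 adipocyte markers listed, the identifiers of CIDEC and LEP were known here, and both were present in all samples, at 810 CPM or more for CIDEC and 78.4 CPM or more for LEP. Stroma was represented by COL1A1 and DCN, smooth muscle by ACTG2, MYH11, DES and CNN1, and skeletal muscle by 5 of 8 markers, of which MYH2 was at 0 in 30 of 48 samples. Epithelium was represented by KRT19 alone, 1 of 4 markers. No identifier was known for markers of endothelium, macrophages and lymphocytes.

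At 12 months, heifers on HE diets had more NQO1, PIR and EPHX2 RNA than heifers on LE diets, and the difference was called in the low-protein groups and over both protein levels. NQO1 ranged from 51.6 to 141 CPM in LPHE heifers (median 115) and from 35.0 to 56.9 CPM in LPLE heifers (median 40.8). The means were 107 ± 32.1 and 43.0 ± 8.04 CPM (SD, n = 6 each). In 5 of the 6 LPHE heifers NQO1 was above every LPLE heifer, and only the lowest LPHE heifer fell into the LPLE range. The log2 fold change was 1.304 (SE 0.249, FDR = 0.000194), which is 2.47-fold.

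PIR followed a like course. Its level ran from 24.3 to 80.3 CPM in LPHE heifers (median 51.4) and from 17.1 to 28.1 CPM in LPLE heifers (median 22.2), with means of 55.8 ± 21.3 and 22.6 ± 3.90 CPM (SD, n = 6 each). Again 5 of 6 LPHE heifers stood above all LPLE heifers. The log2 fold change was 1.27 (SE 0.235, FDR = 0.000162), a 2.41-fold difference. PIR had the rank of 5 and NQO1 of 11 among the 13339 genes ordered by p.

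EPHX2, the epoxide hydrolase, differed less. It ranged from 56.7 to 138 CPM in LPHE heifers (median 103) and from 41.5 to 77.4 CPM in LPLE heifers (median 55.1), with means of 99.1 ± 30.0 and 58.1 ± 16.9 CPM (SD, n = 6 each). The ranges overlapped, with 4 of 6 LPHE heifers above the highest LPLE heifer. The log2 fold change was 0.74 (SE 0.220, FDR = 0.0277), or 1.67-fold. This call was lost without LPHE heifer 5 (FDR = 0.106) or without LPLE heifer 14 (FDR = 0.107).

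All 3 genes were thus called between LPHE and LPLE heifers, where 7.08% of all genes tested were called and 4.45% were called as higher in LPHE heifers. The study had already listed the 3 genes as differing in this contrast of the same samples. Neither these calls nor the permutation tests are therefore independent evidence, and the shares of all genes are no fair background for them. Exact permutation tests of the log2 values, 6 heifers against 6, gave p = 0.00433 for NQO1, p = 0.00649 for PIR and p = 0.0216 for EPHX2, where 0.00216 is the smallest p possible. The same LPHE heifer, number 12 of the HMY group, was the lowest of her diet in each gene, with 51.6 CPM of NQO1, 24.3 CPM of PIR and 56.7 CPM of EPHX2. Without this heifer the log2 fold changes were 1.46, 1.43 and 0.86. Her summed level of the stroma markers COL1A1 and DCN, 22002 CPM, was the highest of the LPHE heifers. Her smooth muscle marker sum, 348 CPM, was not the highest of that diet. The part of these markers was not tested.

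**Figure D1:**
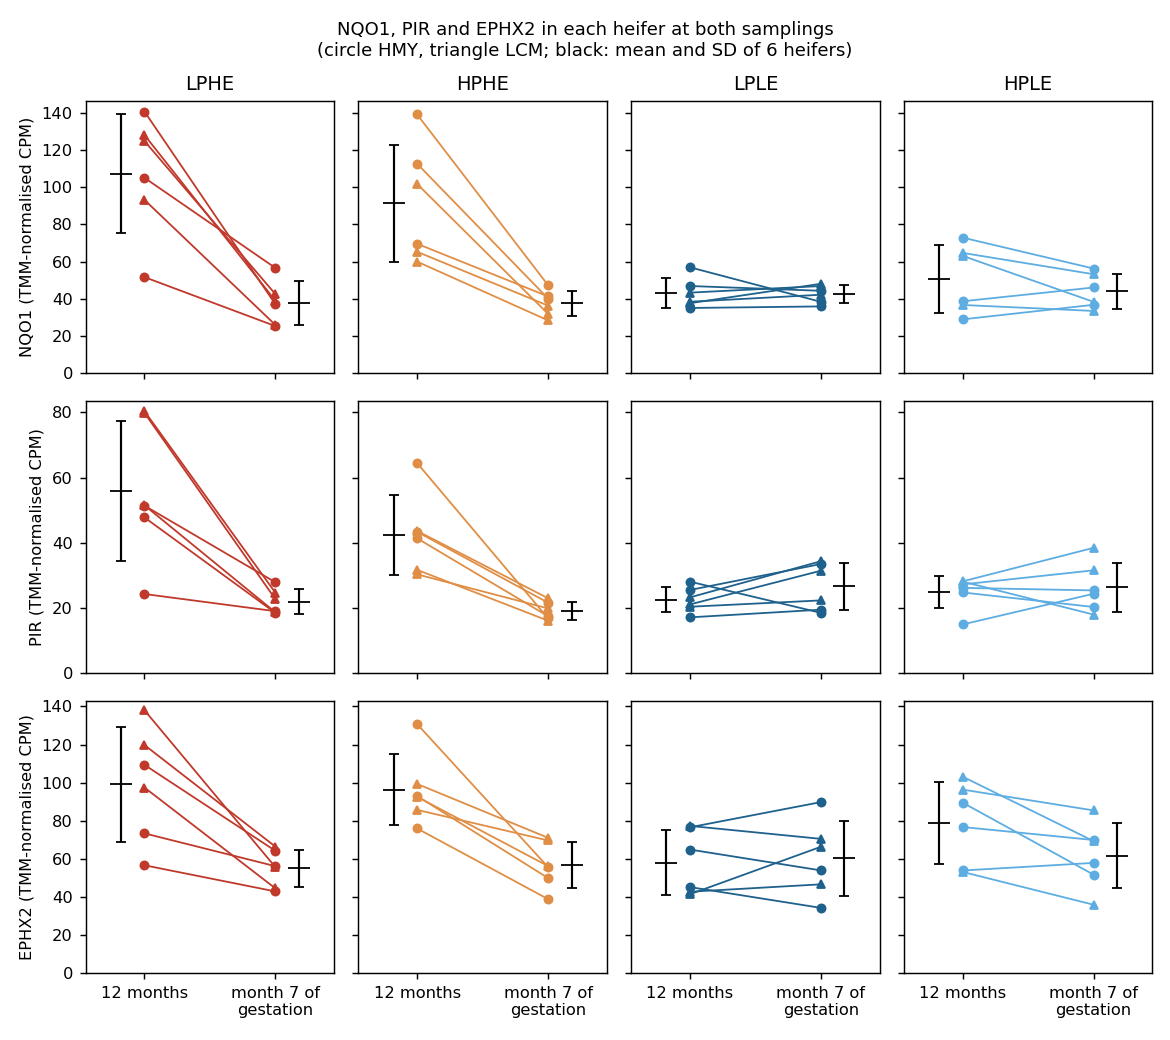
Expression of NQO1, PIR and EPHX2 (rows, TMM-normalised CPM) in each heifer at 12 months and in month 7 of gestation, by rearing diet (columns); each line is 1 heifer, circles are HMY and triangles LCM heifers, and the black bars are the mean and SD of 6 heifers. Every line of the LPHE and HPHE panels slopes down, while lines of the LPLE and HPLE panels run in both directions.

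Markers of other cell types moved with the same comparison. The summed level of COL1A1 and DCN ranged from 6924 to 22002 CPM in LPHE heifers (median 13154) and from 13081 to 42763 CPM in LPLE heifers (median 26865), and both genes were called as lower in LPHE heifers. The sum of CIDEC and LEP ranged from 2046 to 3361 CPM in LPHE and from 888 to 2608 CPM in LPLE heifers, and 1 of the pair was called as higher in LPHE heifers. All 5 skeletal muscle markers with an identifier were called as lower in LPHE heifers, in which their sum was at most 1.37 CPM against up to 60.5 CPM in LPLE heifers. Of the 4 smooth muscle markers 1 was called as lower. KRT19, the epithelial keratin, ranged from 8.52 to 77.8 CPM in LPHE heifers (median 32.6) and from 3.60 to 8.53 CPM in LPLE heifers (median 4.64). It was called as higher in LPHE heifers (log2 fold change 2.81, SE 0.535, FDR = 0.000194), a larger difference than that of the 3 genes and in the same direction. Identifiers of the markers came from the study's tables of genes that differed between diets in these samples. Their calls are therefore not independent evidence of a shift in cell types. The part of these differences in the values of NQO1, PIR and EPHX2 was not tested. In bulk tissue, fewer cells of a type and less RNA per cell cannot be told apart.

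In the high-protein groups the values pointed the same way, but no member was called, and 0.12% of all genes were. NQO1 ranged from 59.9 to 139 CPM in HPHE heifers (median 85.6, mean 91.4 ± 31.6, SD, n = 6). In HPLE heifers it ranged from 28.9 to 72.9 CPM (median 50.8, mean 50.8 ± 18.2, SD, n = 6). The ranges overlapped, and 31 of the 36 pairs of a HPHE and a HPLE heifer had the higher value in the HPHE heifer. The log2 fold change of NQO1 was 0.83 (SE 0.247, FDR = 0.230, exact permutation p = 0.0303).

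For PIR the high-protein groups did not overlap. The 6 HPHE heifers had 30.3 to 64.4 CPM (median 42.4, mean 42.5 ± 12.2, SD) and the 6 HPLE heifers 14.9 to 28.2 CPM (median 26.7, mean 24.9 ± 5.04, SD). The exact permutation p was 0.00216, the smallest possible, while the model gave a log2 fold change of 0.78 (SE 0.233, FDR = 0.230). Of all genes, 0.59% had no overlap between HPHE and HPLE heifers and 0.321% had all HPHE heifers higher. The model's call moved with 1 library, since both PIR (FDR = 0.0691) and NQO1 (FDR = 0.0890) passed without HPHE heifer 15. That heifer had the lowest PIR level of her diet and the highest smooth muscle marker sum of all samples, 6530 CPM. Her stroma marker sum, 12627 CPM, lay inside the range of the HPHE heifers. The part of these markers was not tested.

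EPHX2 ranged from 76.0 to 131 CPM in HPHE heifers (median 92.8, mean 96.2 ± 18.7, SD, n = 6). In HPLE heifers it ranged from 53.2 to 103 CPM (median 83.2, mean 78.9 ± 21.4, SD, n = 6). The groups overlapped widely, and the log2 fold change was 0.29 (SE 0.218, FDR = 0.805, exact permutation p = 0.177).

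Over both protein levels, 12 HE against 12 LE heifers, all 3 genes were called at the FDR of 0.05 used for this contrast, where 7.2% of all genes were called and 4.69% as higher in HE heifers. The log2 fold changes were 1.07 for NQO1 (SE 0.175, FDR = 1.44e-06), 1.02 for PIR (SE 0.164, FDR = 1.13e-06) and 0.51 for EPHX2 (SE 0.154, FDR = 0.0204). In PIR, 11 of 12 HE heifers were above the highest LE heifer. In NQO1 it was 8 of 12 and in EPHX2 4 of 12. The call for EPHX2 was lost when heifer 5 (FDR = 0.0517), heifer 14 (FDR = 0.0510) or heifer 19 (FDR = 0.0678) was left out, and the other calls held in all 24 such fits. In the same contrast both adipocyte markers (CIDEC 0.54, LEP 1.37) and KRT19 (2.23) were called as higher in HE heifers, and both stroma markers and 3 of 5 skeletal muscle markers as lower, while none of 4 smooth muscle markers was called. Their part in the values of the 3 genes was not tested. Members and markers alike were known from the study's results on these samples, so these calls are not independent evidence.

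The energy difference was larger at low than at high protein in each gene, but this was not called. On the log2 scale the difference between the energy contrasts, low protein minus high protein, was 0.47 for NQO1 (SE 0.348), 0.49 for PIR (SE 0.330) and 0.46 for EPHX2 (SE 0.309), each with an FDR of 0.9999, where 0.105% of all genes were called. The 95% intervals ran from -0.21 to 1.16, from -0.16 to 1.14 and from -0.15 to 1.06. A difference as large as the energy effect at high protein itself is within the intervals of each gene.

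Protein level gave no called difference in the 3 genes at 12 months. Between HPHE and LPHE heifers (0.0225% of all genes called) the log2 differences were -0.23 for NQO1, -0.36 for PIR and -0.020 for EPHX2, with 95% intervals from -0.71 to 0.25, from -0.82 to 0.097 and from -0.45 to 0.41. Between HPLE and LPLE heifers (0.0225% called) they were 0.24, 0.13 and 0.44. EPHX2 had the largest of these, with 58.1 CPM in LPLE and 78.9 CPM in HPLE heifers on average, a 95% interval from 0.0074 to 0.86 and an FDR of 0.9999 (exact permutation p = 0.0996).

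**Figure D2:**
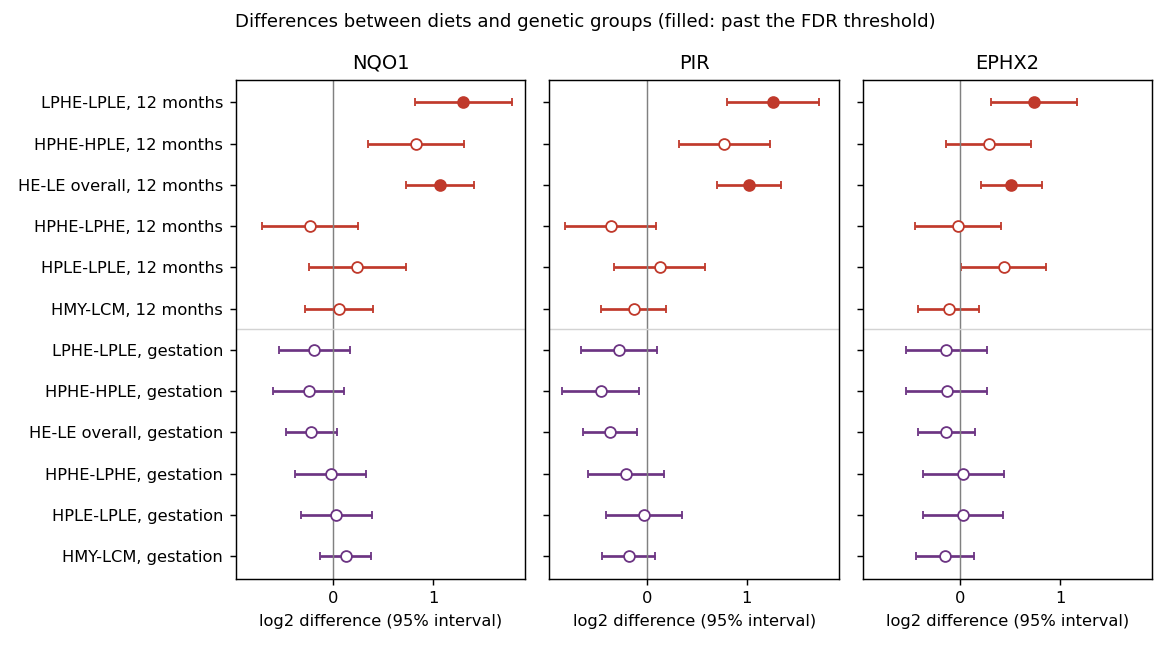
Log2 differences of NQO1, PIR and EPHX2 between diets and between genetic groups, with 95% intervals from the model, at 12 months (red) and in month 7 of gestation (purple); filled points passed the FDR threshold. Filled points stand in LPHE-LPLE and HE-LE overall at 12 months for each gene, and the points of the energy contrasts lie left of 0 in gestation.

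The genetic groups did not differ by a called amount at either sampling. At 12 months (0.03% of all genes called) the HMY-LCM log2 difference was 0.063 for NQO1, -0.13 for PIR and -0.12 for EPHX2. In gestation (0.179% called) the values were 0.13, -0.18 and -0.15. Each of the 6 intervals of 95% included 0, and the farthest bound was -0.45. Within diets of 3 heifers a side, no test was made. PIR at 12 months was 51.5 to 80.3 CPM in LCM and 24.3 to 51.4 CPM in HMY heifers of the LPHE diet. These ranges almost met. In HPHE heifers the LCM values of 30.3 to 43.6 CPM overlapped with the HMY values of 41.4 to 64.4 CPM. The LCM values lay lower on average. Ranges were also apart in PIR of HPLE heifers at 12 months (HMY 14.9 to 26.2, LCM 27.2 to 28.2 CPM). In gestation they were apart in HPHE heifers for NQO1 (HMY 40.1 to 47.2, LCM 28.3 to 36.3 CPM) and EPHX2 (HMY 39.0 to 55.7, LCM 56.3 to 71.1 CPM). The share of all genes with such a gap was not computed, and no conclusion is drawn.

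In month 7 of gestation, when all heifers were on the same feed, the earlier HE heifers no longer had higher levels. NQO1 averaged 37.7 ± 11.6 CPM in LPHE, 42.6 ± 4.77 in LPLE, 37.5 ± 6.84 in HPHE and 44.0 ± 9.33 in HPLE heifers (SD, n = 6 each). All 24 heifers lay between 25.3 and 56.5 CPM, against 28.9 to 141 CPM at 12 months. No diet was separated from another in NQO1.

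PIR averaged 21.9 ± 3.86 CPM in LPHE, 26.6 ± 7.27 in LPLE, 19.1 ± 2.79 in HPHE and 26.3 ± 7.54 in HPLE heifers (SD, n = 6 each). Its lowest and highest values were 16.1 CPM in a HPHE heifer and 38.4 CPM in a HPLE heifer. The LE groups held the 5 highest values of the 24. The groups overlapped in each energy contrast.

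EPHX2 averaged 55.0 ± 9.72 CPM in LPHE, 60.3 ± 19.5 in LPLE, 57.0 ± 12.1 in HPHE and 61.8 ± 17.1 in HPLE heifers (SD, n = 6 each). The 24 values ran from 34.4 to 89.8 CPM, and both ends were LPLE heifers.

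No member was called between diets in gestation. The background was 1.05% of all genes for LPHE-LPLE, 0.948% for HPHE-HPLE, 0.00746% for HPHE-LPHE, 0.0746% for HPLE-LPLE, 0.00746% for the difference between the energy contrasts and 3.74% for HE-LE overall. All 9 log2 differences between HE and LE groups were below 0. Those of HE-LE overall average the LPHE-LPLE and HPHE-HPLE contrasts, so their sign followed from these. The energy differences ran from -0.46 to -0.28 in PIR and from -0.24 to -0.19 in NQO1, and they lay close to -0.14 in EPHX2. The differences between the protein levels were between -0.20 and 0.033.

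PIR came closest to a call. Its HE-LE log2 difference in gestation was -0.37 (SE 0.138, FDR = 0.107), with 20.5 ± 3.52 CPM in HE and 26.5 ± 7.07 CPM in LE heifers (SD, n = 12 each), and the permutation p of the log2 values was 0.0174. This difference passed the threshold of 0.05 without HPLE heifer 13 (FDR = 0.0204) or LPHE heifer 20 (FDR = 0.0485). Between HPHE and HPLE heifers PIR differed by -0.46 (SE 0.195, FDR = 0.515, exact permutation p = 0.0411), and it passed the threshold of 0.1 without HPLE heifer 13 (FDR = 0.0960). In gestation the stroma marker sum of this heifer, 42178 CPM, was the highest of the 24. Her smooth muscle marker sum, 795 CPM, was not the highest, and the part of these markers was not tested. For NQO1 the HE-LE log2 difference was -0.22 with a 95% interval from -0.47 to 0.035, and for EPHX2 it was -0.14 with an interval from -0.42 to 0.15, so the energy differences of 12 months lay outside both intervals.

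Followed within heifers, the 3 genes fell between 12 months and gestation in every heifer reared on a HE diet. On the log2 scale of CPM with a pseudocount of 0.5, the change of NQO1 ranged from -1.91 to -0.75 over the 12 heifers. That of PIR ranged from -1.91 to -0.35 and that of EPHX2 from -1.301 to -0.30. Of all genes, 10.7% fell in all 12 HE heifers. The 3 genes were known from the study as differing between LPHE and LPLE heifers at 12 months. This choice favoured a fall from 12 months in LPHE heifers, here and in the model of all 48 samples. The exact sign-flip permutation test over the 12 heifers gave p = 0.000488 for each gene, the smallest it can give. The smallest decline in PIR was that of LPHE heifer 12, whose level at 12 months was already low.

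In heifers reared on a LE diet the changes went both ways. NQO1 fell in 6 and rose in 6 of 12, PIR fell in 4 and rose in 8, and EPHX2 fell in 8 and rose in 4. The mean log2 changes were -0.076 ± 0.347 for NQO1, 0.13 ± 0.441 for PIR and -0.16 ± 0.401 for EPHX2 (SD, n = 12 each). The exact sign-flip permutation p-values were 0.464, 0.308 and 0.202.

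The model of all 48 samples gave the same picture by diet. It had no term for the heifer, so its SE and FDR values ignore the pairing of samples from 1 heifer. In LPHE heifers all 3 genes were called as lower in gestation, where 29.8% of all genes were called and 16% as lower. The log2 changes were -1.52 for NQO1 (SE 0.223, FDR = 1.89e-09), -1.33 for PIR (SE 0.214, FDR = 4.50e-08) and -0.84 for EPHX2 (SE 0.216, FDR = 0.00136). NQO1 in gestation was thus 0.35 times its level at 12 months. In HPHE heifers (32.4% called, 15.9% as lower) the changes were -1.28 for NQO1 (SE 0.221, FDR = 3.67e-07), -1.16 for PIR (SE 0.213, FDR = 2.00e-06) and -0.77 for EPHX2 (SE 0.216, FDR = 0.00357).

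In LPLE heifers no member was called between the samplings, and 0.598% of all genes were. The log2 changes were -0.0080 for NQO1, 0.22 for PIR and 0.050 for EPHX2, with 95% intervals from -0.44 to 0.42, from -0.19 to 0.64 and from -0.37 to 0.47. In HPLE heifers (2.62% called) they were -0.21, 0.080 and -0.35, again without a call. EPHX2 had the largest decline of these, and 5 of 6 HPLE heifers declined in it (exact sign-flip permutation p = 0.0625, where 0.03125 is the smallest p for 6 heifers). Averaged over the 4 diets, the log2 change was -0.76 for NQO1, -0.55 for PIR and -0.48 for EPHX2, and each was called (highest FDR = 8.16e-05), with a background of 44.5% of all genes called and 22.6% as lower.

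The change with time differed between the energy levels in all 3 genes. The HE-LE difference in gestation minus that at 12 months was -1.29 for NQO1 (SE 0.219, FDR = 7.28e-07), -1.40 for PIR (SE 0.211, FDR = 2.44e-08) and -0.65 for EPHX2 (SE 0.215, FDR = 0.0230) on the log2 scale. Of all genes 21.3% were called in this comparison and 12.0% in the same direction. Each call held with any 1 heifer left out. The comparison contains the samples at 12 months in which the study had listed the 3 genes, so their choice favoured this direction. Markers of other cell types moved in the same comparison. The adipocyte markers CIDEC (-0.70) and LEP (-1.57) and the epithelial KRT19 (-3.19) were called in the direction of the 3 genes, and both stroma markers and 2 of 5 skeletal muscle markers in the opposite one, while none of 4 smooth muscle markers was called. Stroma marker sums had group medians of 13154 CPM at 12 months and 16825 CPM in gestation in LPHE heifers, and of 26865 and 16250 CPM in LPLE heifers. The markers, too, were known through the study's tables of genes differing at 12 months, so their directions here are not independent evidence. The part of these markers in the result was not tested.

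Ordered by mean level over the 8 groups of diet and sampling, NQO1 was highest in LPHE and HPHE heifers at 12 months, with 107 and 91.4 CPM. Then came a step down to HPLE heifers at 12 months with 50.8 CPM, and the 5 groups below lay between 37.5 and 44.0 CPM. PIR had the same leading pair, with 55.8 and 42.5 CPM, and its other 6 groups lay between 19.1 and 26.6 CPM. EPHX2 was led by the same pair, with 99.1 and 96.2 CPM, but HPLE heifers at 12 months stood between, with 78.9 CPM, and the other 5 groups lay between 55.0 and 61.8 CPM. The leading pair was not called as different in any gene (0.0225% of all genes called). The order within the lower groups was not tested as such. The coefficient of variation within a group was 11.2 to 35.9% for NQO1, 14.6 to 38.2% for PIR and 17.7 to 32.4% for EPHX2.

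The 3 genes varied together across the 24 heifers at 12 months. NQO1 correlated with PIR with Pearson r = 0.888 (permutation p = 1e-05, the smallest possible, adjusted p = 0.00018 over 18 relations) and Spearman rho = 0.857 (permutation p = 1e-05, adjusted p = 0.00018). Without the pair of heifers farthest from the median of NQO1, r was 0.878. Much of this range lay between diets. With each value centred on its diet mean, r was 0.712 (permutation p = 0.00082, adjusted p = 0.00369) and rho 0.532 (p = 0.0113, adjusted p = 0.0239), and r fell to 0.504 without the farthest pair.

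NQO1 with EPHX2 had r = 0.743 (permutation p = 6e-05, adjusted p = 0.00054) and rho = 0.754 (p = 7e-05, adjusted p = 0.00063), and r was 0.714 without the farthest pair. Centred on diet means, r was 0.5999 (permutation p = 0.00405, adjusted p = 0.0104), rho was 0.586 (p = 0.0042, adjusted p = 0.0151) and r without the farthest pair was 0.420. PIR with EPHX2 had r = 0.647 (permutation p = 0.0007, adjusted p = 0.00369) and rho = 0.641 (p = 0.00105, adjusted p = 0.0063), with r = 0.533 without the farthest pair. Within diets this relation was weaker, with r = 0.421 (permutation p = 0.0708, adjusted p = 0.0981) and rho = 0.295 (p = 0.187, adjusted p = 0.259). It rested on the farthest pair, since r was 0.092 without these heifers. All values of a heifer at one time came from 1 library, so the genes shared its depth and cell composition.

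In gestation, over the same 24 heifers, the pairs ranked differently. PIR and EPHX2 had r = 0.618 (permutation p = 0.00128, adjusted p = 0.00461) and rho = 0.601 (p = 0.00227, adjusted p = 0.0102), and r was 0.543 without the farthest pair. Centred on diet means r was 0.668 (permutation p = 0.00265, adjusted p = 0.00795) with rho = 0.589 (p = 0.00841, adjusted p = 0.0239) and r = 0.556 without the farthest pair. NQO1 and PIR had r = 0.499 (permutation p = 0.0133, adjusted p = 0.0239) and rho = 0.503 (p = 0.0132, adjusted p = 0.0239), with r = 0.463 without the farthest pair. When centred, r was 0.414 (permutation p = 0.0385, adjusted p = 0.0630) and rho 0.447 (p = 0.0326, adjusted p = 0.0533), with r = 0.325 without the farthest pair. NQO1 and EPHX2 had r = 0.280 (permutation p = 0.184, adjusted p = 0.237) and rho = 0.197 (p = 0.356, adjusted p = 0.401).

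**Figure D3:**
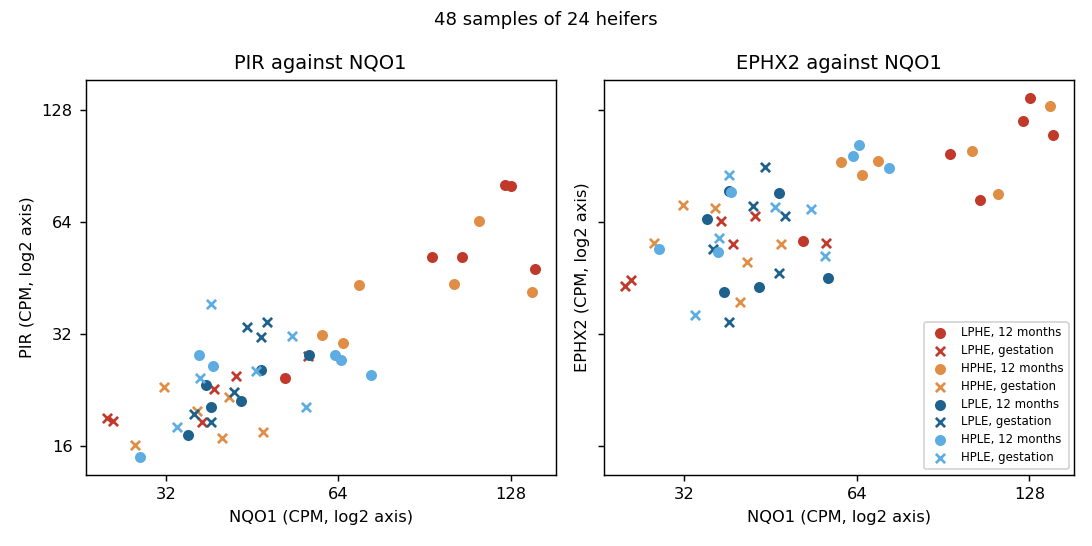
PIR (left) and EPHX2 (right) against NQO1, in CPM on log2 axes, over 48 samples of 24 heifers coloured by rearing diet, with dots for 12 months and crosses for month 7 of gestation. The HE heifers at 12 months extend to the upper right, up to 141 CPM of NQO1, while all gestation samples lie at or below 56.5 CPM of NQO1.

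A heifer's level at 12 months was compared with her level in gestation. As measured, r was 0.048 for NQO1 (permutation p = 0.823, adjusted p = 0.823), -0.229 for PIR (p = 0.283, adjusted p = 0.319) and 0.386 for EPHX2 (p = 0.0630, adjusted p = 0.0945), with rho of 0.133, -0.270 and 0.337. Once each value was centred on its diet mean, r was 0.574 for NQO1 (permutation p = 0.0129, adjusted p = 0.0239, rho = 0.557, adjusted p = 0.0239) and 0.583 for EPHX2 (p = 0.00579, adjusted p = 0.0130, rho = 0.542, adjusted p = 0.0239). Without the farthest pair these were 0.447 and 0.485. For PIR the centred r was 0.204 (permutation p = 0.311, adjusted p = 0.329). Heifers above their diet mean in NQO1 or EPHX2 at 12 months therefore tended to lie above it in gestation too.

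Across all 48 samples and 13717 other genes, the genes most like NQO1 by Pearson r of log2 CPM were COPS5 (0.910), UCHL3 (0.908) and GOT2 (0.902). COPS5 encodes a subunit of the COP9 signalosome, UCHL3 a ubiquitin hydrolase and GOT2 the mitochondrial aspartate aminotransferase. PIR held rank 53 with r = 0.852, and EPHX2 rank 663 with r = 0.717. For PIR they were TTC1 (0.890), PSMA1 (0.890), a proteasome subunit, and ATP6V1H (0.887), a subunit of the vacuolar proton pump. For EPHX2 they were BCAS3 (0.841), ISCU (0.834), the scaffold of iron-sulfur cluster assembly, and HIBADH (0.821), an enzyme of valine breakdown. Values centred on the 8 group means gave r of 0.701 to 0.802 for these 9 genes. Samples of 1 heifer are not independent, and these correlations are given as a description.

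Other genes of the NRF2 pathway were described from a list of 26, for 8 of which an identifier was known. Symbols came from the study's own tables, which hold genes it selected as differing between diets in these samples, so for this list and those that follow neither the counts at 12 months nor those of changes from 12 months to gestation are independent evidence of direction. The contrasts in gestation are of the same heifers, so for these lists the share of all genes is no fair background there either. All 8 were called as higher in LPHE than in LPLE heifers, where 4.45% of all genes were, with a median log2 fold change of 0.79 against -0.019 over all genes. The 5 with the smallest p were ME1 (1.71, SE 0.341) and PGD (1.05, SE 0.239), which supply NADPH, PRDX1 (0.78, SE 0.178), a peroxiredoxin, GCLC (0.77, SE 0.188), the catalytic subunit of glutamate-cysteine ligase, and TALDO1 (0.80, SE 0.200), transaldolase of the pentose phosphate pathway. Between HPHE and HPLE heifers none of the 8 was called, and the median was 0.50. NFE2L2, which encodes NRF2, KEAP1, EPHX1, NQO2, BCL3 and AHR were not analysed here.

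In gestation 5 of the 8 NRF2 pathway genes were called as lower in earlier HE than LE heifers (median log2 difference -0.51), where 2.66% of all genes were, and none was called as higher. These included PGD (-0.59, SE 0.135, FDR = 0.00130), PRDX1 (-0.40, SE 0.0961, FDR = 0.00256) and TALDO1 (-0.45, SE 0.110, FDR = 0.00297). ME1 had -0.70 (SE 0.247, FDR = 0.0828) and GCLC -0.045 (SE 0.135, FDR = 0.913). NQO1, PIR and EPHX2 had -0.22, -0.37 and -0.14 in the same contrast. All 8 genes were called as lower in gestation than at 12 months in LPHE heifers (median -1.22) and in HPHE heifers (median -1.27), where 16% and 15.9% of all genes were, and none was called in LPLE or HPLE heifers. In the change of the energy difference with time all 8 were called, with a median of -1.27, where 12.0% of all genes were called in that direction. Both comparisons contain the samples at 12 months on which the genes were selected, so this choice favoured their direction.

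Quinone and carbonyl reductases other than NQO1 had an identifier for 3 of 17 genes. CRYZ, a quinone reductase, was higher in LPHE than in LPLE heifers (log2 fold change 0.82, SE 0.214), as were CBR4 (0.66, SE 0.180), a carbonyl reductase, and DCXR (0.58, SE 0.176), dicarbonyl and xylulose reductase, and all 3 were called, where 4.45% of all genes were called as higher. None was called in HPHE-HPLE, where 0.12% of all genes were. In gestation, where 2.66% of all genes were called as lower in HE heifers, CBR4 (-0.40, SE 0.109, FDR = 0.0117) and DCXR (-0.49, SE 0.132, FDR = 0.0117) were called as lower, and CRYZ had -0.28 (SE 0.123, FDR = 0.194).

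Peroxisomal genes, of interest because EPHX2 is also found in that organelle, had an identifier for 7 of 33. Of these 4 were called as higher in LPHE than in LPLE heifers, where 4.45% of all genes were, with a median over the 7 of 0.70. They were AMACR (0.94, SE 0.266) and PIPOX (1.21, SE 0.393), which act on branched fatty acids and on pipecolic acid, SCP2 (0.70, SE 0.200), a sterol carrier protein, and CAT (0.62, SE 0.189), the catalase. None was called in HPHE-HPLE (0.12% of all genes). In gestation 1 of 7 was called as lower in HE heifers (2.66% of all genes). This was PEX19 (-0.51, SE 0.109, FDR = 0.000513), a factor of peroxisome assembly, while CAT had 0.048 (SE 0.110, FDR = 0.884).

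For formation and breakdown of epoxides and related lipid mediators, 2 of 15 genes had an identifier. PTGIS, prostacyclin synthase (log2 fold change -1.04, SE 0.430, FDR = 0.152), and PTGS1, cyclooxygenase 1 (-0.78, SE 0.299, FDR = 0.118), were not called in LPHE-LPLE. In LPHE heifers both were called as higher in gestation than at 12 months, a direction opposite to that of EPHX2, where 13.8% of all genes were. In HPHE heifers 1 of the 2 was called as higher, where 16.5% of all genes were. Of 10 listed partners of pirin only NFIX, a nuclear factor I protein, had an identifier, and it was called as lower in LPHE than in LPLE heifers (-0.49, SE 0.162, FDR = 0.0549). NFIX rose between the samplings in LPHE heifers (0.38) and in HPHE heifers (0.34), both called, where 13.8% and 16.5% of all genes were called as higher. None of 10 genes of the aryl hydrocarbon receptor pathway had one.

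Genes of adipocyte lipid synthesis had an identifier for 9 of 15. Of these 8 were called as higher in LPHE than in LPLE heifers, where 4.45% of all genes were, with a median log2 fold change of 1.14. DGAT2, which the study listed as differing in this contrast, was not called here (0.61, FDR = 0.138). The 5 with the smallest p were ELOVL6 (1.58, SE 0.305), ACSS2 (1.22, SE 0.238), ACACA (1.28, SE 0.275), THRSP (1.36, SE 0.307) and SCD (1.11, SE 0.317). In gestation all 9 were called as lower in earlier HE than LE heifers, where 2.66% of all genes were, with a median of -1.26. The values of the 3 detoxification genes, from -0.37 to -0.14, were smaller in size than the least of these 9, -1.09 for DGAT2. A test of that difference was not made.

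**Figure D4:**
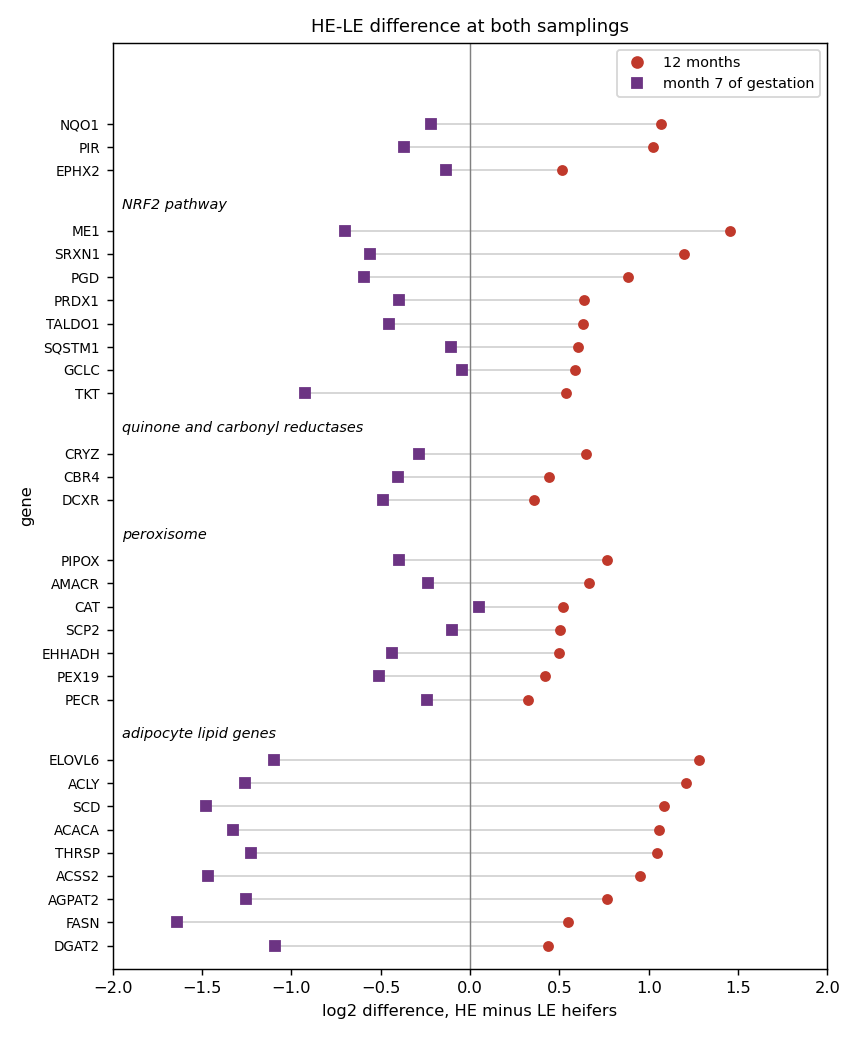
Log2 difference between HE and LE heifers at 12 months (red dots) and in month 7 of gestation (purple squares) for NQO1, PIR and EPHX2 and for the genes of the 4 lists shown that are reported here. All red dots drawn lie right of 0. The lists of epoxide genes and pirin partners are not drawn, and their median differences at 12 months were -0.49 and -0.33. Genes were known only through the study's tables of genes that differed between diets, so the shared direction is not independent evidence. The purple squares of NQO1, PIR and EPHX2 lie at -0.22, -0.37 and -0.14, and those of the adipocyte lipid genes between -1.64 and -1.09.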

How the data were processed

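RNA from subcutaneous adipose biopsies of 24 heifers, each sampled at both times, was sequenced in 48 libraries. The deposited values are raw read counts per Ensembl gene without normalization. To make them, the authors trimmed reads with cutadapt (1.3), aligned them to UMD3.1 with TopHat2 (2.0.12) and counted reads with HTSeq, as their methods and the labels' processing notes name. The 5 summary rows at the end of each table were left out, and genes held a median of 57.0% of the classified reads (39.0 to 61.2%).

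Groups and heifers were taken from the sample labels. Genes that reached 2 CPM in 3 or more samples of a fit were TMM-normalised in edgeR (4.0.16, R 4.3.3) and fitted with glmFit, with common, trended and tagwise dispersions estimated in turn. Each time was fitted with diet and genetic group. Times were compared in a fit of all 48 samples with genetic group and the groups of diet and sampling, but no term for the heifer. The test was the likelihood ratio test, after the study's use of glmFit, in place of the quasi-likelihood F test, which was an alternative. FDR values are Benjamini-Hochberg adjusted over all genes tested, and calls were made at 0.1 (0.05 for HE-LE overall). The SE was derived from the estimate and its likelihood ratio statistic (estimate over the root of the statistic), and 95% intervals follow from it. Exact permutation and sign-flip tests used log2 CPM with a pseudocount of 0.5. Relations across heifers, and the tests of 12 against 12, used 100000 resamples, and all tests were two-sided. No samples were pooled, since the 120 pairs of replicates differed by far more than sampling noise.

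Alternatives were the quasi-likelihood F test, DESeq2 (1.42.0), library size alone, no filter, no genetic group, other sets of samples, each heifer left out, a pseudocount of 1 and the heifer as a block. Dispersions from estimateDisp, and the block with the quasi-likelihood F test, were added after the values were seen. The scripts were tested on simulated counts. The members and gene lists were chosen with earlier results of these data known. Of the listed genes, 1 in each of 2 lists is not reported here and was left out of the counts and medians of those lists. Named besides the members are, for each, the 3 genes most like it, and from each list up to 5 genes with the smallest p in LPHE-LPLE at 12 months and 6 regulators and relatives of the members; DGAT2, PTGIS, PTGS1 and PEX19 and others outside it were named where a small count called for it. The numbers of a heifer pair her samples. Deviations from the group means correlated with a median r of 0.304 over 24 heifers (-0.056 to 0.581), and in 20 the r was over 0.1. Sequencing lanes are not in the labels used here, so no within-lane value was computed. Symbols came from the study's tables, and no sequence of the genes was used here, so a planned motif search was not run.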

Additional observations from a re-analysis of the deposited data

Results flagged for a closer look

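PIR in HPLE heifers at 12 months had 1 value that stood apart. Heifer 1 had 14.95 CPM, while the other 5 HPLE heifers lay between 24.8 and 28.2 CPM, and the gap took 0.743 of the range of the group, above Dixon's critical value for 6 samples. Of the 24 groups of 6 heifers examined over the 3 genes this was the only one, and chance gives about 1 in 20. The same heifer had the lowest NQO1 level of her diet (28.9 CPM) and 54.0 CPM of EPHX2.

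The effect of rearing energy differed between the samplings in all 3 genes, by the test of the difference itself in edgeR over 48 samples. The HE-LE log2 difference in gestation minus that at 12 months was -1.289 for NQO1 (FDR = 7.28e-07), -1.398 for PIR (FDR = 2.44e-08) and -0.6525 for EPHX2 (FDR = 0.0230). Within heifers, 12 of 12 HE heifers declined in each gene, against 6, 4 and 8 of 12 LE heifers. The 3 genes were known as differing between diets in the samples at 12 months, and this choice favoured the direction found. The end of the rearing diets, pregnancy and age cannot be told apart here.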

How the results depend on the processing

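The quasi-likelihood F test, DESeq2, dispersions from estimateDisp, leaving out the genetic group and a pseudocount of 1 CPM changed no direction and no call of the 3 genes. With all 48 samples in the fit, NQO1 HPHE-HPLE at 12 months became significant at 0.83 (FDR = 0.0953), and so did PIR with only the 12 samples of that contrast, at 0.74 (FDR = 0.0794). Values close to 0 reversed, namely EPHX2 HPHE-LPHE at 12 months with only the 12 samples (0.0013), EPHX2 in the difference between the energy contrasts in gestation with library size alone (0.030), and the NQO1 change in LPLE heifers with library size alone (0.013) or no filter (0.011). The cause of these changes was not tested.

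Centring on diet means moved the relation of 12 months to gestation to r = 0.583 for EPHX2 and r = 0.574 for NQO1, both then significant, and reversed it for PIR (r = 0.204). NQO1 with PIR in gestation (r = 0.414) and PIR with EPHX2 at 12 months (r = 0.421) were no longer significant, all by permutation tests.

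With each heifer left out in turn, calls were lost or gained in these log2 ranges. EPHX2 ranged from 0.63 to 0.86 in LPHE-LPLE and from 0.45 to 0.57 in HE-LE overall at 12 months. In HPHE-HPLE at 12 months NQO1 ranged from 0.68 to 0.97 and PIR from 0.60 to 0.88. In gestation PIR ranged from -0.44 to -0.31 in HE-LE overall and from -0.58 to -0.34 in HPHE-HPLE. Directions of uncalled values reversed in these ranges. For EPHX2 these were the difference between the energy contrasts in gestation (-0.123 to 0.184), HPHE-LPHE at 12 months (-0.142 to 0.081) and in gestation (-0.043 to 0.112), HPLE-LPLE (-0.088 to 0.206) and LPHE-LPLE (-0.255 to 0.033) in gestation and the change in LPLE heifers (-0.055 to 0.128). For NQO1 they were the difference between the energy contrasts in gestation (-0.090 to 0.145), HMY-LCM at 12 months (-0.013 to 0.144), HPHE-LPHE (-0.121 to 0.128) and HPLE-LPLE (-0.055 to 0.089) in gestation and the change in LPLE heifers (-0.083 to 0.115). For PIR they were HPLE-LPLE in gestation (-0.144 to 0.077) and the change in HPLE heifers (-0.015 to 0.197).

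With the heifer as a replicate block, no call of the 3 genes changed. The change of the energy difference with time was then -1.289 for NQO1, -1.329 for PIR and -0.628 for EPHX2. The block raised the genes called from 82 to 493 in LPLE and from 360 to 736 in HPLE heifers, and with the quasi-likelihood F test these were 319 and 702.

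Counts of all genes called depended more on the processing. LPHE-LPLE at 12 months gave 944 calls, 1615 with DESeq2 and 1533 with all 48 samples, and 484 to 1719 with a heifer left out. HE-LE overall at 12 months gave 960 calls and 1598 with DESeq2. HPHE-HPLE at 12 months gave 16 calls, 0 with the quasi-likelihood F test and 61 with only the 12 samples. In gestation LPHE-LPLE gave 141 and HPHE-HPLE 127 calls, both 0 with the quasi-likelihood F test, and DESeq2 gave 423 for LPHE-LPLE. HE-LE overall in gestation gave 501 calls and 1151 with DESeq2. With 3 heifers per diet and genetic group, no diet was tested within a genetic group.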
